A study of Mus musculus with 6 samples.

Results

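The 10 genes described here encode the main heat shock proteins of the cytosol, their co-chaperones and the factor that switches them on. They were taken by name from a table of 55487 mouse genes: Hspa1a, Hspa1b, Hspa8, Hsp90aa1, Hsp90ab1, Hsph1, Dnajb1, Hspb1, Cryab and Hsf1. All 10 had exactly 1 Ensembl identifier in the table and all 10 passed the filter on low counts. RNA had been sequenced from 6 whole grafts of B16F10, a pigmented mouse melanoma line, grown under the mucosa of the tongue in C57BL/6J mice. Each library held 14477277 to 20972494 counts.

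In the 3 inhibition grafts the pain-sensing nerves that reach the lymph nodes were inhibited. Per the series' design text, the vector AAV2/retro-Trpv1-hM4D(Gi)-mCherry had been injected into the cervical nodes, and AAV2/retro-Trpv1-mCherry into the other animals. Trpv1, an ion channel of nociceptive neurons, names the element that drives the transgene, and hM4D(Gi) is a designed receptor that quiets neurons when its ligand is given. Tumour cells followed 6 weeks after the vector, and the ligand deschloroclozapine was given 2 times a day for 12 days. The 3 control grafts carried the label vehicle-treated, so whether they received the ligand with the mCherry vector or a vehicle is unclear. All 6 samples were labelled WT; the sources used here do not give the age or sex of the mice. The manipulated neurons lie outside the graft, so these libraries hold no check of the silencing.

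Heat shock proteins are chaperones: they hold other proteins while they fold and keep damaged ones from clumping. The HSP70 proteins bind short stretches of unfolded chain and work with J-domain partners such as Dnajb1, which bring them clients, and with exchange factors such as Hsph1, which reset them. HSP90 proteins finish kinases and hormone receptors, while the small heat shock proteins Hspb1 and Cryab bind unfolding proteins without using ATP and are abundant in muscle. When unfolded proteins build up, the transcription factor Hsf1 binds repeated GAA units in front of the inducible genes, Hspa1a and Hspa1b above all. Hspa8 and Hsp90ab1 are the constitutive relatives, made in nearly all cells without stress. Tumour cells commonly carry high levels of these proteins.

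The sequences before the RefSeq starts of the inducible genes are shown because Hsf1 is known to bind repeated GAA units there. RefSeq promoter windows (build GRCm38.p6) were held for 5 of the 10 genes: Hspa1a, Hspa1b, Hsph1, Dnajb1 and Hspb1. In the 200 bases before the most upstream start, pairs of facing GAA units were searched as GAANNTTC and TTCNNGAA; each reads the same on both strands, and the 2 forms can overlap. Of these 5 genes, 4 held at least 1 such pair, all but Dnajb1, against 10.4% of the 32851 promoter windows in the table. Hsph1 and Dnajb1 each have 2 starts there, and the window of the other start was not searched, while the share counts every window. The windows of Hspa1a and Hspa1b are near copies, so their matches are not separate. A run of 3 facing units, GAANNTTCNNGAA or TTCNNGAANNTTC, was found in 0.371% of all windows and in none of the 5. A match describes letters only. The stretches below run from position -150 to -16 of the start, read 5′ to 3′ on the gene's strand, and the capitals mark the pairs.
Hspa1b, chr17:34959254-34959388, minus strand: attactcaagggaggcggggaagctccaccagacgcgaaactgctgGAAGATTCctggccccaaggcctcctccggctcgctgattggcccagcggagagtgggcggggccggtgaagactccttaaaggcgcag
Hspb1, chr5:135887769-135887903, plus strand: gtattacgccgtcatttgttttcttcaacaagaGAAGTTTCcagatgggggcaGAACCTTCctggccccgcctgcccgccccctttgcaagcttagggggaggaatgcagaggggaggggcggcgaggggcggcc
Hsph1, chr5:149636352-149636486, minus strand: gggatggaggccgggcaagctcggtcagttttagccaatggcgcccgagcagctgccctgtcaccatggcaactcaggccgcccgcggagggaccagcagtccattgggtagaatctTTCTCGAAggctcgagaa
The pair of Hspa1b begins at position -104, those of Hspb1 at -117 and -97, and that of Hsph1 at -33. The Hsph1 pair lies before the RefSeq start but inside the span that the GENCODE annotation gives the gene. Hspa1a, at chr17:34972172-34972306 on the minus strand, has the same letters as Hspa1b throughout this stretch, and over the full 200 bases the genes differ at 1 position.

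The grafts carried these genes at levels that spanned more than 3 orders of magnitude. Levels are given as CPM, counts scaled to a common depth with TMM factors, and between genes as CPM per kilobase of the principal transcript. The constitutive Hsp90ab1 and Hspa8 stood on top, with medians over the 6 libraries of 1257 and 1241 CPM per kilobase, and did not separate from each other. Hsp90aa1, the stress-inducible HSP90, followed at 452 CPM per kilobase, and then Cryab at 197 and Hspb1 at 83.8 CPM per kilobase. Hsf1 stood at 33.5, Hsph1 at 28.0 and Dnajb1 at 20.1 CPM per kilobase; the range of Hsph1 overlapped those of both others. The inducible pair closed the order, Hspa1b at 5.32 and Hspa1a at 0.576 CPM per kilobase. The ranges of Hspb1 and Hsf1 also overlapped, through the lowest Hspb1 value, although Hspb1 lay above Hsf1 in all 6 libraries. Hspa8, Hsp90aa1, Cryab, Dnajb1 and Hspa1b each lay clear of the gene below them in all 6 libraries.

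The comparison asked how these genes differed in the graft when the node-innervating nociceptive nerves were inhibited. Of the 10 genes, 9 had a positive log2 fold change (51% of all genes did) and Dnajb1 a negative one. Their median was 0.46 against 0.00485 over all 15666 genes tested. The 10 are not separate observations. Pearson's r of log2 CPM over the 6 libraries ran from -0.782 (Hsp90ab1 with Dnajb1) to 0.977 (Hspb1 with Hsf1). At an adjusted p under 0.05, edgeR's quasi-likelihood test called 0 of the 10. Over all genes it called 0.0383% in either direction and 0.0319% higher. Without adjustment, 4 of the 10 had an edgeR p under 0.05 and a higher level in the inhibition grafts (Cryab, Hsf1, Hspb1 and Hspa1a), and 0 a lower one, against 8.36% of all genes higher and 7% lower (15.4% in all). That count of 4 was 2 without inhibition 1, 1 without inhibition 2, 1 without inhibition 3 and 2 without control 2. It was 3 without control 1 and 6 without control 3. With the muscle marker level as a covariate it was 2, with the replicate number as a block 5, and without the count filter 3. Hspa1a, 1 of the 4, had an unadjusted edgeR p of 0.239 when its counts were summed with those of Hspa1b. DESeq2 called 1 of the 10, Cryab (3.67% of the genes to which it gave an adjusted p, 2.37% higher), and limma-voom 0 (0% of all genes). In 3 genes (Hspb1, Cryab and Hsf1) each inhibition graft lay above each control, and in 1 gene (Dnajb1) below, against 10.2% and 11% of all genes (21.3% in either direction).

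Control 1 was the lowest of the 6 libraries in 8 of the 10 genes, all but Hsp90ab1 and Dnajb1. Nor was this limited to heat shock genes. Control 1 was also the lowest for the muscle markers Acta1 and Ckm, the keratin Krt5 and the pigment genes Pmel and Tyrp1. For the keratin Krt13 it was not. How often control 1 was the lowest over all genes was not counted. Pairs of libraries were also compared by chi-square per degree of freedom, where a larger value means counts less alike. Against the inhibition grafts, control 1 gave 27.6 to 42.1, control 2 up to 15.6 and control 3 up to 27.7. Within groups, control 1 gave 18.9 and 17.6, control 2 and 3 gave 10.6, and the inhibition grafts 8.29 to 20.01. Inhibition 3 lay nearer to control 2 (11.1) than to inhibition 1 (14.10) or inhibition 2 (20.01). Without control 1, the median log2 fold change of the 10 genes was 0.25. In that fit edgeR called 0 of them, and 3 had an unadjusted p under 0.05 with a higher level. The genes together took 0.864%, 0.839% and 0.812% of the counts in inhibition 1, 2 and 3, against 0.709%, 0.769% and 0.822% in control 1, 2 and 3. These shares overlapped between the groups.

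Markers of other cell types were read beside these genes. Of 19 skeletal muscle markers tested, 19 had a positive log2 fold change (median 1.33); edgeR called 0, 10 had an unadjusted p under 0.05, and DESeq2 called 7. Ttn (titin, log2 fold change 1.45, edgeR adjusted p = 0.162) and Actn2 (an actinin, 1.36, 0.166) had the smallest p. Of 15 squamous epithelium markers, 14 were positive (median 0.77); edgeR called 0, DESeq2 called 1, and 4 had an unadjusted p under 0.05, with Lor (1.73, 0.239) and Evpl (1.68, 0.247), both of the cornified envelope, at the smallest p. Summed over the 20 genes of the list, muscle markers took 2734 to 4681 CPM in the inhibition grafts and 1019 to 2304 CPM in the controls. Epithelium markers summed to 1728 to 5224 CPM in the inhibition grafts against 1362 to 2986 CPM in the controls, and these sums overlapped. Tnnc2, a fast-muscle troponin, was at 0 in 4 of the 6 libraries, while the other 19 muscle markers were detected in all. Acta1, skeletal actin, averaged 859 ± 141 CPM in the inhibition grafts and 398 ± 123 CPM in the controls, and the mucosal keratin Krt13 1720.05 ± 971 and 811 ± 484 CPM (SD, n = 3 each). Ckm, muscle creatine kinase, averaged 109 ± 47.4 and 44.9 ± 27.2 CPM, and the basal keratin Krt5 116 ± 25.4 and 86.3 ± 17.8 CPM, in inhibition grafts and controls. Of 12 melanocyte lineage markers, 11 had a log2 fold change above 0 (median 0.07); edgeR and DESeq2 called 0, and 0 had an unadjusted p under 0.05. The ion channel Trpm1 had the smallest p (0.70, edgeR adjusted p = 0.484). The pigment genes Pmel and Tyrp1 averaged 4889 ± 520.4 and 9185 ± 1363 CPM in the inhibition grafts, and 4041 ± 1014 and 7116 ± 2254 CPM in the controls (log2 fold changes 0.27 and 0.37), while Tyr, which starts melanin synthesis, had a log2 fold change of -0.04. In bulk tissue, fewer cells of a type and less RNA per cell cannot be told apart, and the part of muscle or epithelium in the values of the heat shock genes was not tested beyond the fit that follows. With the mean level of the muscle markers as a covariate, the median log2 fold change of the 10 genes was 0.10. The covariate itself moves with the group. The log2 fold change was above that of the fit without it in Hspa1a (1.80), Hsp90ab1 (0.12) and Cryab (0.47), and below it in the other genes.

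**Figure D1:**
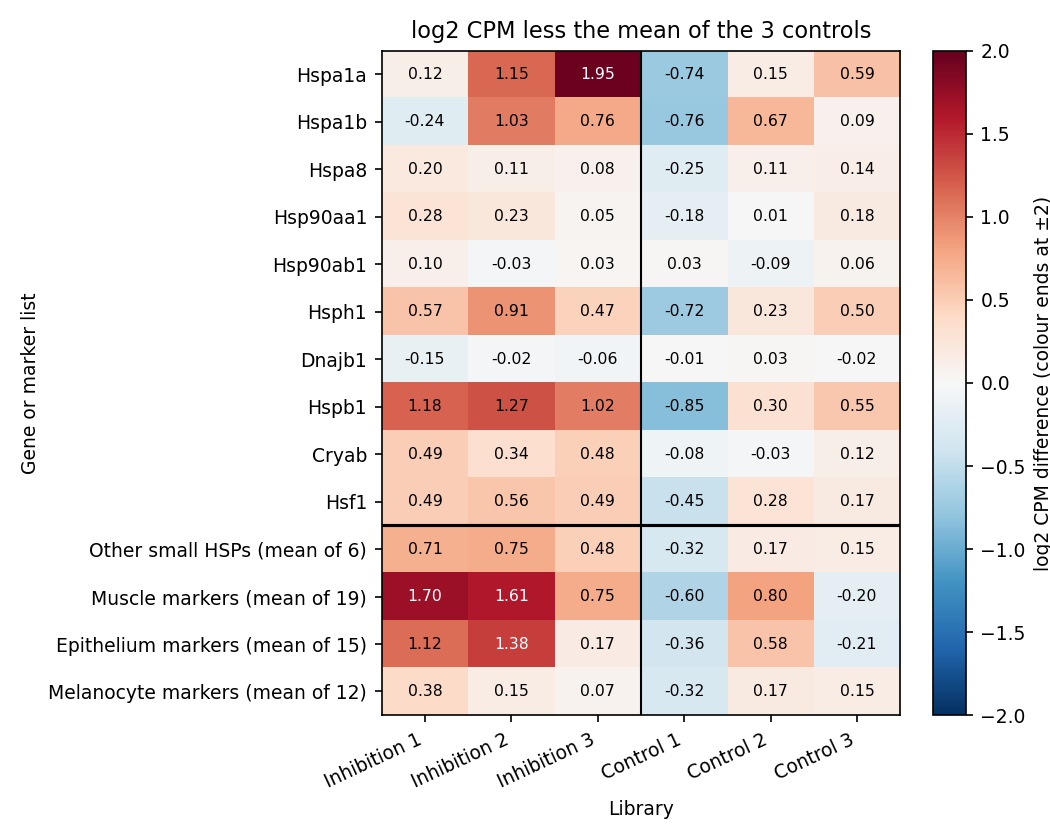
Difference in log2 CPM from the mean of the 3 controls, by library (columns, inhibition left) for the 10 genes (rows above the line) and the mean of 4 marker lists (rows below it); the printed numbers are the differences and the colour ends at ±2. Hspb1, Cryab and Hsf1 are above 0.3 in all 3 inhibition grafts, the muscle markers read 0.75 to 1.70 there, and control 1 is the low column for most genes.

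Cryab, also called alpha B-crystallin, is a small heat shock protein of lens, heart and skeletal muscle that guards desmin and actin filaments. Cryab (ENSMUSG00000032060) lies on the plus strand of chromosome 9, at 50751325 to 50756636 in GRCm38. It stood at 264, 236 and 261 CPM in inhibition 1, 2 and 3, against 176, 183 and 203 CPM in control 1, 2 and 3. All 3 inhibition grafts lay above all 3 controls, and the gap between the groups was wider than the range within either. The means were 254 ± 15.3 CPM in the inhibition grafts and 187 ± 13.9 CPM in the controls (SD, n = 3 each), a log2 fold change of 0.44 (standard error 0.08). The edgeR adjusted p was 0.122 and the DESeq2 adjusted p 0.000699. With each library left out in turn, its log2 fold change was 0.39 to 0.49 and its edgeR adjusted p 0.0798 to 0.525, the highest without inhibition 1. With the muscle covariate its log2 fold change was 0.47 (standard error 0.14, edgeR unadjusted p 0.00670, adjusted p 0.999973); in that fit edgeR called 0 of all genes and 3.34% had an unadjusted p under 0.05. Acta1 had a larger log2 fold change (1.11) than Cryab, so a lower mean ratio of Cryab to Acta1 already followed from these values. The log2 ratios within each library were -1.93, -1.85 and -1.47 in the inhibition grafts and -0.58, -1.46 and -1.08 in the controls. The means differed by -0.71, and inhibition 3 lay barely below control 2 (exact permutation test, two-sided, p = 0.1, the smallest 3 against 3 can give; adjusted over 3 ratios 0.3). Hspb2, a neighbour on the opposite strand, shares 252 exon bases with Cryab, but it held 515 counts in all against 23781 for Cryab, and whether counting used strand is not given in the sources used here.

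Hspb1, the small heat shock protein that binds actin and is known as Hsp25 in mice, had a log2 fold change of 1.04. Hspb1 (ENSMUSG00000004951) lies on the plus strand of chromosome 5, at 135887919 to 135889563 in GRCm38. It stood at 98.1, 105 and 88.0 CPM in inhibition 1, 2 and 3, against 24.02, 53.4 and 63.3 CPM in control 1, 2 and 3. All 3 inhibition grafts lay above the controls, while the controls themselves differed by more than the gap between the groups. The means were 96.9 ± 8.46 CPM in the inhibition grafts and 46.9 ± 20.4 CPM in the controls (95% interval of the log2 fold change 0.15 to 1.94; edgeR adjusted p = 0.275). Without control 1 the log2 fold change was 0.72 with a standard error of 0.11 (edgeR adjusted p = 0.0536; over all alternatives it ranged from 0.0536 to 0.999973). With the muscle covariate it was 0.53 with a standard error of 0.59.

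The other small heat shock proteins were examined as a list of 8 genes chosen by name, of which 6 passed the count filter. Their median log2 fold change was 0.73, and 5 of 6 were positive. None passed edgeR's adjusted threshold, though 4 had an unadjusted p under 0.05, all with a higher level (8.36% of all genes). DESeq2 called 3, all higher (2.37% of the genes to which it gave an adjusted p), and limma-voom 0. Hspb6, a small heat shock protein of muscle, stood at 77.8, 67.8 and 38.02 CPM in inhibition 1, 2 and 3 against 19.7, 30.4 and 24.2 CPM in control 1, 2 and 3 (log2 fold change 1.302, edgeR adjusted p = 0.186). Hspb7, a filament-associated protein of heart and muscle, stood at 139, 120.02 and 148 CPM in the inhibition grafts against 45.0, 83.7 and 86.9 CPM in the controls (0.92, 0.223). Hspb3 (1.298, 0.255) and Hspb8 (0.54, 0.224), named after their values were seen, were the other 2. Hspb3 was low, at 0.771, 1.28 and 0.762 CPM in the inhibition grafts against 0.181, 0.521 and 0.436 CPM in the controls. DESeq2 gave Hspb3 no adjusted p. Hspb2 had a log2 fold change of -0.08 and Hspb11 one of 0.00344. The unadjusted count of 4 was 0 with the muscle covariate, 2 without inhibition 2 and 3 without control 1. It was also 3 with DESeq2 and with the filter of at least 1 CPM in every library of a group.

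Hsf1, the trimeric factor that drives the heat shock response, stood at 74.8, 78.6 and 74.9 CPM in inhibition 1, 2 and 3, against 39.0, 64.6 and 60.2 CPM in control 1, 2 and 3. Hsf1 (ENSMUSG00000022556) lies on the plus strand of chromosome 15, at 76477422 to 76501913 in GRCm38. The inhibition grafts were nearly equal to one another and above every control. The means were 76.1 ± 2.15 CPM in the inhibition grafts and 54.6 ± 13.7 CPM in the controls, a log2 fold change of 0.48 (95% interval 0.07 to 0.88; edgeR adjusted p = 0.266). Without control 1 it was 0.28 (standard error 0.08), and with the muscle covariate 0.12 (standard error 0.21). Its level is that of the message; Hsf1 is chiefly controlled as a protein. Among other factors and regulators of the response, Hsf4, a relative known from the lens, averaged 36.2 ± 0.297 CPM in the inhibition grafts and 29.8 ± 3.64 CPM in the controls (log2 fold change 0.28, edgeR adjusted p = 0.256). Hsbp1, which binds the trimer of Hsf1, had a log2 fold change of 0.12 (0.482). Neither edgeR nor DESeq2 called any of the 5 tested genes of this list (0 of 5), and 1 had an unadjusted edgeR p under 0.05.

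The inducible HSP70 genes were low and scattered. Hspa1b stood at 9.46, 23.0 and 19.1 CPM in inhibition 1, 2 and 3, against 6.58, 17.9 and 11.9 CPM in control 1, 2 and 3. Inhibition 1 lay below 2 of the 3 controls, so the groups overlapped. The log2 fold change was 0.51, with a 95% interval of -0.60 to 1.62 (edgeR adjusted p = 0.622); with each library left out it was 0.21 (without control 1) to 0.88. Hspa1a stood at 1.40, 2.97 and 5.29 CPM in inhibition 1, 2 and 3, from 20, 58 and 111 counts. In control 1, 2 and 3 it stood at 0.724, 1.43 and 1.98 CPM, from 12, 22 and 41 counts. Its fitted log2 fold change was 1.22 (95% interval 0.04 to 2.40; edgeR adjusted p = 0.310), but inhibition 1 lay below 2 controls here as well. With each library left out it was 0.66 to 1.59, the lowest without inhibition 3, where the unadjusted edgeR p was 0.209. With the muscle covariate it was 1.80 (standard error 0.76, edgeR adjusted p 0.999973).

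Hspa1a (ENSMUSG00000091971) and Hspa1b (ENSMUSG00000090877) lie side by side on chromosome 17 of GRCm38, at 34969190 to 34972156 and 34956436 to 34959238, and encode nearly the same protein. Of all windows of 100 bases in the Hspa1a message, 47.1% occur in that of Hspa1b, so reads can be shared between them or dropped, and the split between the genes is uncertain. Their sum avoids the first problem. It stood at 10.9, 26.0 and 24.3 CPM in inhibition 1, 2 and 3, against 7.30, 19.3 and 13.9 CPM in control 1, 2 and 3. The sums overlapped, with a log2 fold change of 0.60 (standard error 0.46, edgeR unadjusted p = 0.239, adjusted p = 0.563).

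The constitutive Hspa8, which folds new proteins and strips clathrin from vesicles, stood at 3159, 2979 and 2914 CPM in inhibition 1, 2 and 3, against 2319, 2965 and 3028 CPM in control 1, 2 and 3. Hspa8 (ENSMUSG00000015656) lies on the plus strand of chromosome 9, at 40800984 to 40810087 in GRCm38. Control 1 lay below the other 5 libraries, which ranged from 2914 to 3159 CPM. The log2 fold change was 0.12 (95% interval -0.11 to 0.36; edgeR adjusted p = 0.596) and 0.00188 without control 1. The ratio of the inducible pair to Hspa8 sets the inducible against the constitutive HSP70 within a library. Its log2 values were -8.18, -6.84 and -6.90 in the inhibition grafts and -8.31, -7.26 and -7.77 in the controls. They differed by 0.47 between the means and overlapped (exact permutation test, two-sided, p = 0.4; adjusted over 3 ratios 0.4).

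The HSP90 genes, Hsp90aa1 (ENSMUSG00000021270, chromosome 12, 110690605 to 110702728) and Hsp90ab1 (ENSMUSG00000023944, chromosome 17, 45567775 to 45573271), share no window of 50 bases (0% of those in Hsp90aa1). Hsp90aa1 stood at 1666, 1604 and 1419 CPM in inhibition 1, 2 and 3, against 1209, 1379 and 1549.7 CPM in control 1, 2 and 3, and the groups overlapped. The log2 fold change was 0.18 (95% interval -0.05 to 0.41; edgeR adjusted p = 0.428) and 0.09 without control 1. Hsp90ab1 stood at 3328, 3030.5 and 3172 CPM in inhibition 1, 2 and 3, against 3163, 2903 and 3238 CPM in control 1, 2 and 3. The groups overlapped, with a log2 fold change of 0.03 and a 95% interval of -0.14 to 0.21 (edgeR adjusted p = 0.853). The within-library log2 ratio of Hsp90aa1 to Hsp90ab1 was -0.998, -0.92 and -1.16 in the inhibition grafts and -1.39, -1.07 and -1.06 in the controls. The means differed by 0.15 and the groups overlapped (exact permutation test, two-sided, p = 0.4; adjusted over 3 ratios 0.4).

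The co-chaperones of HSP70 were Hsph1 (ENSMUSG00000029657, chromosome 5, 149614287 to 149636376) and Dnajb1 (ENSMUSG00000005483, chromosome 8, 83608193 to 83612653). Hsph1, the HSP110 exchange factor, stood at 113, 143 and 105 CPM in inhibition 1, 2 and 3, against 46.2, 89.1 and 108 CPM in control 1, 2 and 3. Control 3 lay above inhibition 3, and the log2 fold change of 0.57 had a 95% interval of -0.25 to 1.39 (edgeR adjusted p = 0.452); it was 0.28 without control 1 and 0.09 with the muscle covariate. Dnajb1, the J-domain partner of the inducible HSP70 and itself a classic target of Hsf1, ran the other way by a small amount. It stood at 54.8, 59.9 and 58.6 CPM in inhibition 1, 2 and 3, against 60.3, 62.2 and 60.3 CPM in control 1, 2 and 3. All inhibition grafts lay just below the controls, with a log2 fold change of -0.08 and a 95% interval of -0.24 to 0.09 (edgeR adjusted p = 0.641).

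**Figure D2:**
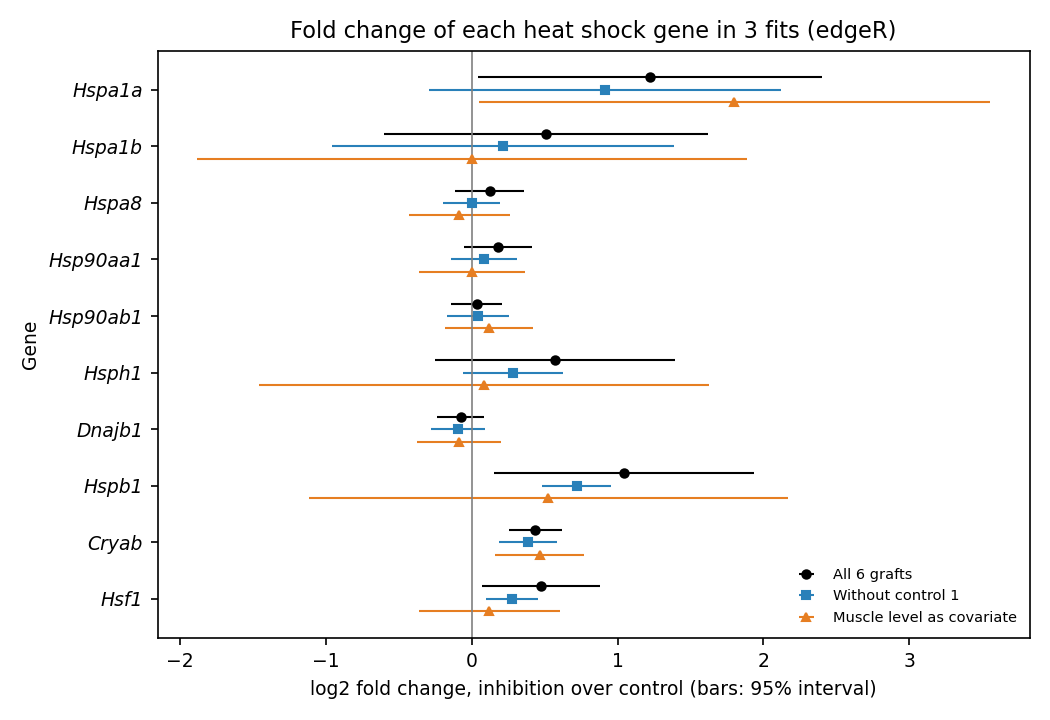
log2 fold change of each gene, inhibition over control, with its 95% interval from edgeR in 3 fits: all 6 grafts (black), without control 1 (blue) and with the muscle marker level as a covariate (orange). Cryab keeps an interval above 0 in all 3 fits, at 0.44, 0.39 and 0.47. Hspb1 and Hsf1 do so in the first and second fits but not with the covariate. Hspa1a does so with all 6 grafts (1.22) and with the covariate (1.80), but not without control 1 (0.91).

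The wider chaperone network was described from 10 lists that hold 99 further genes, 93 of them tested. Their median log2 fold change was 0.00752, with 51 positive and 42 negative. None was called by edgeR (0 of 93) or limma-voom (0), while 10 with a higher and 8 with a lower level had an unadjusted edgeR p under 0.05. Over all genes tested, 8.36% were higher and 7% lower at that p, and 51% had a positive log2 fold change. These shares are the background for the counts of every gene list, marker lists included. DESeq2 called 5 of the 93, 4 higher and 1 lower (3.67% of the genes to which it gave an adjusted p, 2.37% higher). The 4 higher were Dnaja4, Hspb6, Hspb7 and Hspb8, and the lower one was Grpel1, an exchange factor of the mitochondrial HSP70. Dnaja4, a J-domain protein, stood at 9.18, 12.2 and 6.39 CPM in inhibition 1, 2 and 3 against 3.44, 3.90 and 3.34 CPM in control 1, 2 and 3 (log2 fold change 1.38, edgeR adjusted p = 0.122). Grpel1 stood at 70.4, 78.5 and 71.8 CPM in the inhibition grafts against 91.6, 97.1 and 92.4 CPM in the controls (-0.35, 0.160).

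Other genes that heat induces, 19 in number, had a median log2 fold change of 0.15, with 15 positive; 5 had an unadjusted edgeR p under 0.05, 4 of them higher and 1 lower. Adjusted, edgeR called 0 and DESeq2 called 1, Dnaja4. Stip1, which hands clients from HSP70 to HSP90, averaged 269.7 ± 9.41 CPM in the inhibition grafts and 229.9 ± 17.5 CPM in the controls (log2 fold change 0.23, edgeR adjusted p = 0.228). Bag3, a partner of HSP70 and Hspb8 and a strong Hsf1 target, averaged 72.7 ± 0.713 CPM in the inhibition grafts and 69.7 ± 2.04 CPM in the controls (0.06, 0.694); it is named after its values were seen. Among the HSP90 co-chaperones the next gene by p was Fkbp5, an immunophilin, at -0.33 (0.331). In the list of J-domain proteins Dnajb12 followed Dnaja4, at -0.18 (0.357).

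The remaining lists had medians from -0.12 to 0.10. The other HSP70 and HSP110 genes had a median log2 fold change of 0.10, led by Hspa13 (-0.13, edgeR adjusted p = 0.495) and Hspa4l (0.14, 0.496). The HSP70 exchange factors and regulators, a list that also holds the collagen chaperone Serpinh1, had a median of -0.05. It was led by Bag5 (-0.26, 0.226) and Hspbp1 (-0.19, 0.341). Mitochondrial chaperones had a median of -0.00185, with the protease partner Clpx at -0.18 (0.312) after Grpel1. Of the 14 genes of the cytosolic chaperonin TRiC and of prefoldin, which fold actin and tubulin, 13 were negative, with a median of -0.12. An unadjusted edgeR p under 0.05 was found for 4 of them, all with a lower level (7% of all genes). Pfdn1 stood at -0.22 (0.236) and Cct2 at -0.18 (0.264). Endoplasmic reticulum chaperones had a median of 0.03, with Hspa5, the HSP70 of that compartment, at -0.28 (0.250) and Calr, a lectin chaperone, at 0.21 (0.311). Each list is set against a median of 0.00485 over all genes tested, and edgeR called 0 genes in any of them.

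**Figure D3:**
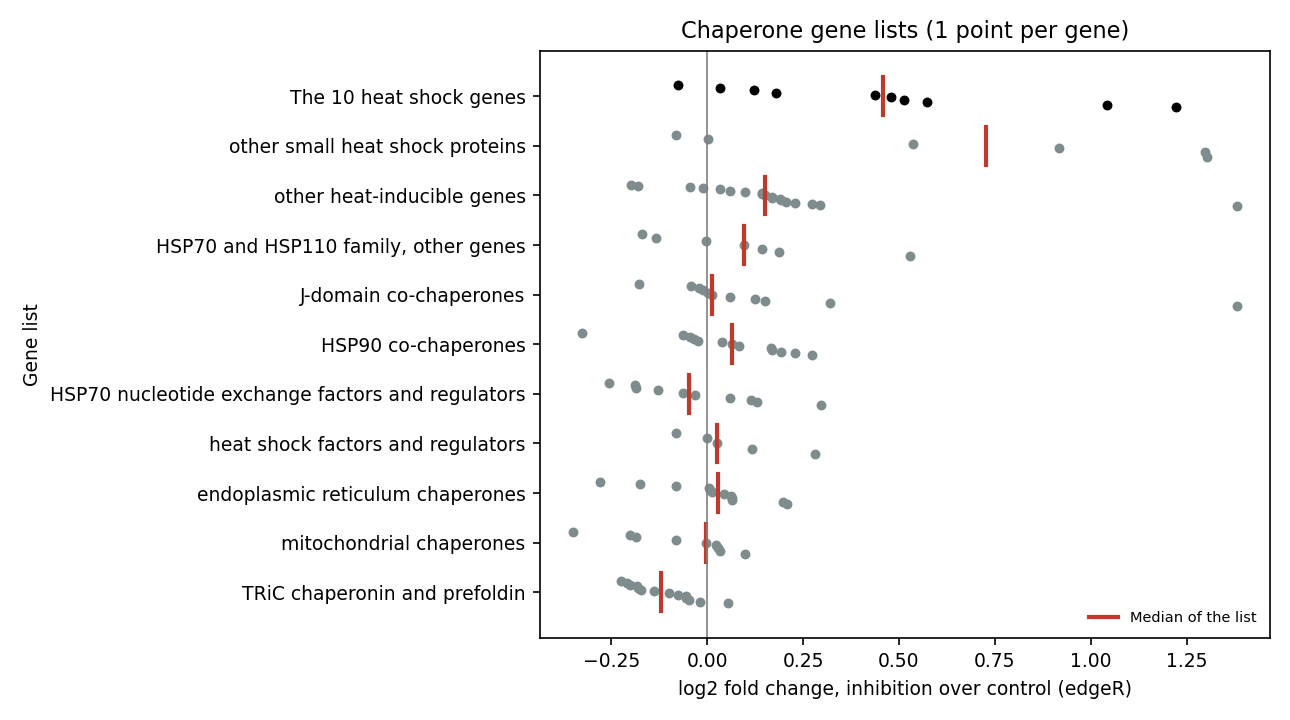
log2 fold change, inhibition over control, of each tested gene (points) and the list median (red bar) for the 10 heat shock genes and 10 chaperone lists; a gene may stand in more than 1 list. The 10 genes have a median of 0.46 and the other small heat shock proteins of 0.73, while the remaining medians lie between -0.12 and 0.15.

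Immediate early genes, which many stresses and tissue handling induce, had a median log2 fold change of -0.34, with 10 of 12 negative. Dusp1, a phosphatase of stress kinases, averaged 19.1 ± 2.92 CPM in the inhibition grafts and 27.8 ± 6.71 CPM in the controls (edgeR adjusted p = 0.232), and Junb 52.6 ± 9.23 and 67.6 ± 7.51 CPM (0.259). Neither edgeR nor DESeq2 called any (0 of 12), and 2 had an unadjusted edgeR p under 0.05. Neutrophil markers had a median of -2.26, with 9 of 9 negative, and summed to 9.60 to 32.7 CPM in the inhibition grafts against 40.02 to 100.7 CPM in the controls. The receptors Trem1 (-2.26, 0.122) and Fpr1 (-2.97, 0.157) had the smallest p, DESeq2 called 4 of the 9 lower, and Ly6g, which failed the filter, had 0 counts in each inhibition graft and 1 in each control. The part of these cells in the values of the heat shock genes was not tested.

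Genes whose level over the 6 libraries ran most like that of 3 of the heat shock genes were picked by Pearson's r of log2 CPM among 9477 genes. With 6 points and so many genes these values are a description only. Hspa1b was matched most closely by Stxbp5 (0.988), Tmem39a (0.980) and Unc93b1 (0.976), Hsp90ab1 by Letm1 (0.984), Ccne1 (0.983) and St3gal2 (0.981), and Cryab by Ankhd1 (0.994), Ptprb (0.990) and Pold2 (0.989). No gene of the chaperone lists was among these 9.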

How the data were processed

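RNA from 6 whole grafts was sequenced, 3 of the inhibition group and 3 controls. The authors deposited 1 table of whole-number read counts by Ensembl ID, not normalized as far as the values show. HISAT2 2.0 and mm10 stand in the submitters' processing notes; the counter, annotation, strand setting and filters are not given in the sources used here. Columns were matched to samples by name; those of the inhibition group speak of denervation. No column was left unused (0). Library totals were 14477277 to 20972494 counts, so 1 count was worth 0.0477 to 0.0691 CPM; precision from depth covers counting error only. Symbols were found for 55141 of 55487 IDs.

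Genes were filtered with filterByExpr (count minimum 10, total minimum 15), scaled by TMM and tested with the quasi-likelihood test of edgeR 4.0.16 (R 4.3.3, robust) over all 15666 genes, with Benjamini-Hochberg adjustment and a threshold of 0.05. Standard errors are the absolute log2 fold change over the square root of F, and 95% intervals use the test's degrees of freedom. Alternatives were other scalings and filters, limma 3.58.1 (voom), DESeq2 1.42.0, a replicate block, a muscle covariate and leaving out each library. Lengths, positions and transcripts come from GENCODE M21 (GRCm38), the principal transcript being that with the best APPRIS tag and then the longest. The labels name no batch, and nothing in them states separate mice per sample: p-values then cover the spread among these 6 samples, which may be technical.

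The 10 genes and all gene lists were chosen with earlier results of these data known. Genes named are the 10, of each list every gene edgeR called or otherwise the 2 of smallest p, 6 content markers (Acta1, Ckm, Krt5, Krt13, Pmel and Tyrp1), and the 3 genes most like each of Hspa1b, Hsp90ab1 and Cryab with a mean of at least 10 CPM. Tnnc2, Ly6g, Tyr, Bag3, Hspb2, Hspb3, Hspb8 and Hspb11 fall outside this rule and were chosen after their values were seen. Serpinh1 is named only as a member of its list.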

Additional observations from a re-analysis of the deposited data

How the results depend on the processing

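edgeR called 0 of the 10 heat shock genes with every library left out in turn (0 to 0), with other scalings, the stricter filter, the looser threshold of 0.1, Hspa1a and Hspa1b summed, the muscle covariate and the replicate block; DESeq2 called 1 and edgeR with no filter 3 (Cryab, Hsf1 and Hspa1a), where it called 1187 genes in all. The median log2 fold change of the 10 genes was 0.10 with the muscle covariate, which itself moves with the group, and 0.25 to 0.50 with each library left out. Of 160 single-gene alternatives, 153 kept direction and side of the threshold, 4 gained a call and 3 turned sign. Those with the looser threshold of 0.1 reuse the fit of all 6 libraries, so their direction could not change. None of the 10 genes was called in that fit, so keeping the side means staying uncalled. Hspa8 turned sign to -0.0845 with the muscle covariate. Hsp90ab1 turned to -0.00911 without inhibition 1 and -0.0272 without control 2 (range with each library left out -0.0272 to 0.0606). The cause of these turns was not tested. The number of genes higher at an unadjusted p under 0.05, a count added after seeing the data, was 1 to 6 with each library left out. With each library left out, the ratio of the inducible pair to Hspa8 differed by 0.21 to 0.91, Hsp90aa1 to Hsp90ab1 by 0.04 to 0.22 and Cryab to Acta1 by -0.92 to -0.48. Same-numbered libraries deviated together with correlations of -0.18, 0.33 and 0.09, and 3 of 6 correlated best with their own number. With 3 libraries per group this check cannot tell whether same-numbered samples were paired. With the replicate block edgeR called 14 genes in all and 0 of the 10, with a median of 0.47. The block changed the standard error of Hspa1b from 0.45 to 0.14 and that of Hsp90aa1 from 0.10 to 0.12. Pairing by replicate number cannot change the mean differences of the 3 ratios (0.47, 0.15 and -0.71). With the pairs kept, their exact sign-flip permutation p (two-sided) was 0.25, 0.5 and 0.25. Depth limits Hspa1a most, with 12 to 111 counts per library.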
